A study of Mus musculus with 15 samples.

Results

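The genes described here encode the proteins of the cytosolic ribosome. Members were taken by symbol: Rpl or Rps followed by a digit, together with Rplp0, Rplp1, Rplp2 and Rpsa, without the S6 kinase genes and without pseudogenes. Of 71 symbols on the array that meet these letters, 6 are S6 kinase genes, and the remaining 65 are read by 96 probes. A gene was kept when a probe of it had a detection p-value under 0.01 on at least 3 of the 15 arrays, and it was read from its brightest such probe. This held for 57 members among 8976 genes tested. The 57 comprise 20 proteins of the small subunit, 30 of the large subunit, 5 paralogs of subunit proteins (Rpl22l1, Rpl36al, Rpl7l1, Rps27l and Rps4l) and 2 symbols that share the letters without naming a ribosomal protein (Rps19bp1 and Rps23rg1). Rpl3l, Rpl6, Rpl14, Rpl17, Rpl39l, Rps20, Rps23 and Rpsa were detected on too few arrays. The probes of these 8 symbols gave raw signals of 75.5 to 196.

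A cytosolic ribosome joins a small subunit, which decodes the messenger RNA, to a large subunit, which forms the peptide bond. Each subunit is a scaffold of ribosomal RNA bound by proteins that are made in near-equal amounts, so their genes are usually expressed at high and steady levels and several serve as reference genes in expression studies. The messenger RNAs of ribosomal proteins begin with a run of C and T called a terminal oligopyrimidine tract, through which mTOR signalling and the protein LARP1 set how well they are translated. Thyroid hormone raises protein synthesis and growth in liver.

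Expression was measured in liver of male C57BL/6 mice aged 8 weeks on 15 Illumina bead arrays in 5 groups of 3. Liothyronine (T3, the active form of thyroid hormone) was given into the peritoneum at 20 µg per 100 g. Acute T3 means 1 dose with liver taken 6 h later, chronic T3 means 14 daily doses with liver taken 6 h after the final one, and T3 withdrawal means the same 14 doses followed by 10 days without hormone. Untreated baseline A belongs to the experiment subset of acute T3, and untreated baseline B to that of chronic T3 and T3 withdrawal. No injection is given for either baseline, so the hormone and the injections cannot be told apart, and no source used here says that each array is a separate animal. The p-values therefore measure the spread between arrays. The arrays had mean signals of 435 to 697 with 11049 to 14679 of 45281 probes detected, and chronic T3 replicates 2 and 3 were the dimmest at 438 and 435. Hepatocyte markers were measured for 12 of the 13 listed. In whole liver, fewer cells of a type and less RNA per cell cannot be told apart.

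The start of a ribosomal protein gene carries its tract of C and T, and the starts of some members named in later comparisons are printed for that reason. RefSeq starts on GRCm38.p6 were found for 48 of the 57 members, and a window of 30 bases was read, 15 before the annotated start of the gene and 15 from it. Each window is written 5′ to 3′ on the strand of its gene, with the longest run of C and T in capitals.
Rplp2 (chr7:141447636-141447665, plus strand): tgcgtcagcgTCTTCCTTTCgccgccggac
Rpl13a (chr7:45128731-45128760, minus strand): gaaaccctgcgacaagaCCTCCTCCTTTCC
Rps15a (chr7:118116133-118116162, minus strand): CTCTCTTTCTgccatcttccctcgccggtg
Rpl28 (chr7:4792950-4792979, plus strand): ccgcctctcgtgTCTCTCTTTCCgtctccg
Rpl7a (chr2:26910792-26910821, plus strand): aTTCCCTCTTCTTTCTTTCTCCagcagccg
Rps6 (chr4:86857353-86857382, minus strand): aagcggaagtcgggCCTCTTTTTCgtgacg
Rps9 (chr7:3704026-3704055, plus strand): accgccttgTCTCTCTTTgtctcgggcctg
Rpl22l1 (chr3:28805493-28805522, plus strand): gtgcggcgcaagcccgTTCTCTTCCCacgg
Rpl22 (chr4:152325711-152325740, plus strand): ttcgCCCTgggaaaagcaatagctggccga
Rpl23 (chr11:97782425-97782454, minus strand): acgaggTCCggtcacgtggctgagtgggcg
The letters CTTTC stood on the gene's strand in 12 of the 48 windows (25%), against 1073 of 27025 windows of the same length over all genes (3.97%). On the other strand, where they read GAAAG, the shares were 4.17% of members and 3.43% of all genes. A run of at least 8 C or T, which can hold CTTTC within it, was present in 20 of the 48 windows (41.7%) and in 11.9% of all windows. Genes of mitochondrial ribosomal proteins had CTTTC in 2 of 69 windows (2.90%) and the run in 9 of 69. Among the printed starts, those of Rplp2, Rpl13a, Rps15a, Rpl28 and Rpl7a hold CTTTC, and those of Rpl22 and Rpl23 have a longest run of 4 and 3 letters. Rpl27 and Rpl24, also called in later comparisons, are not printed. Their windows lack CTTTC and have longest runs of 5 and 2 letters. Rpl7a and Rpl22l1 are printed though neither was called in the 6 comparisons, so the printed starts do not stand for the called members. A match describes the letters only, and the annotated starts may lie some bases from the used ones.

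Chronic T3 was compared with baseline B to ask what 14 days of hormone did to these genes. Among the 57 members, 4 rose and 1 fell. Rplp2, Rpl23, Rpl13a and Rps15a were higher and Rpl22 was lower, and the other 52 did not pass the test (limma's moderated test over all genes, called at a Benjamini-Hochberg adjusted p under 0.05). Over all 8976 genes 22.9% were called in this comparison, 12.4% higher and 10.5% lower, so that the members' share of 8.77% lies below the background. The changes were small, with 47 of 57 log2 differences within 0.3 of zero. The differences leaned to one side with quantile normalization, which makes all arrays share one distribution: 46 of 57 were positive (80.7%, against 52.4% of all genes), with a median of 0.16 against 0.03 over all genes, whereas with median scaling 28 of 57 were positive with a median of -0.01 against 0.04. Without any normalization between arrays 10 were positive and the median was -0.15 against -0.10. The lean therefore depended on the scaling and turned its sign relative to all genes, and no member was called under either of those scalings.

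**Figure D1:**
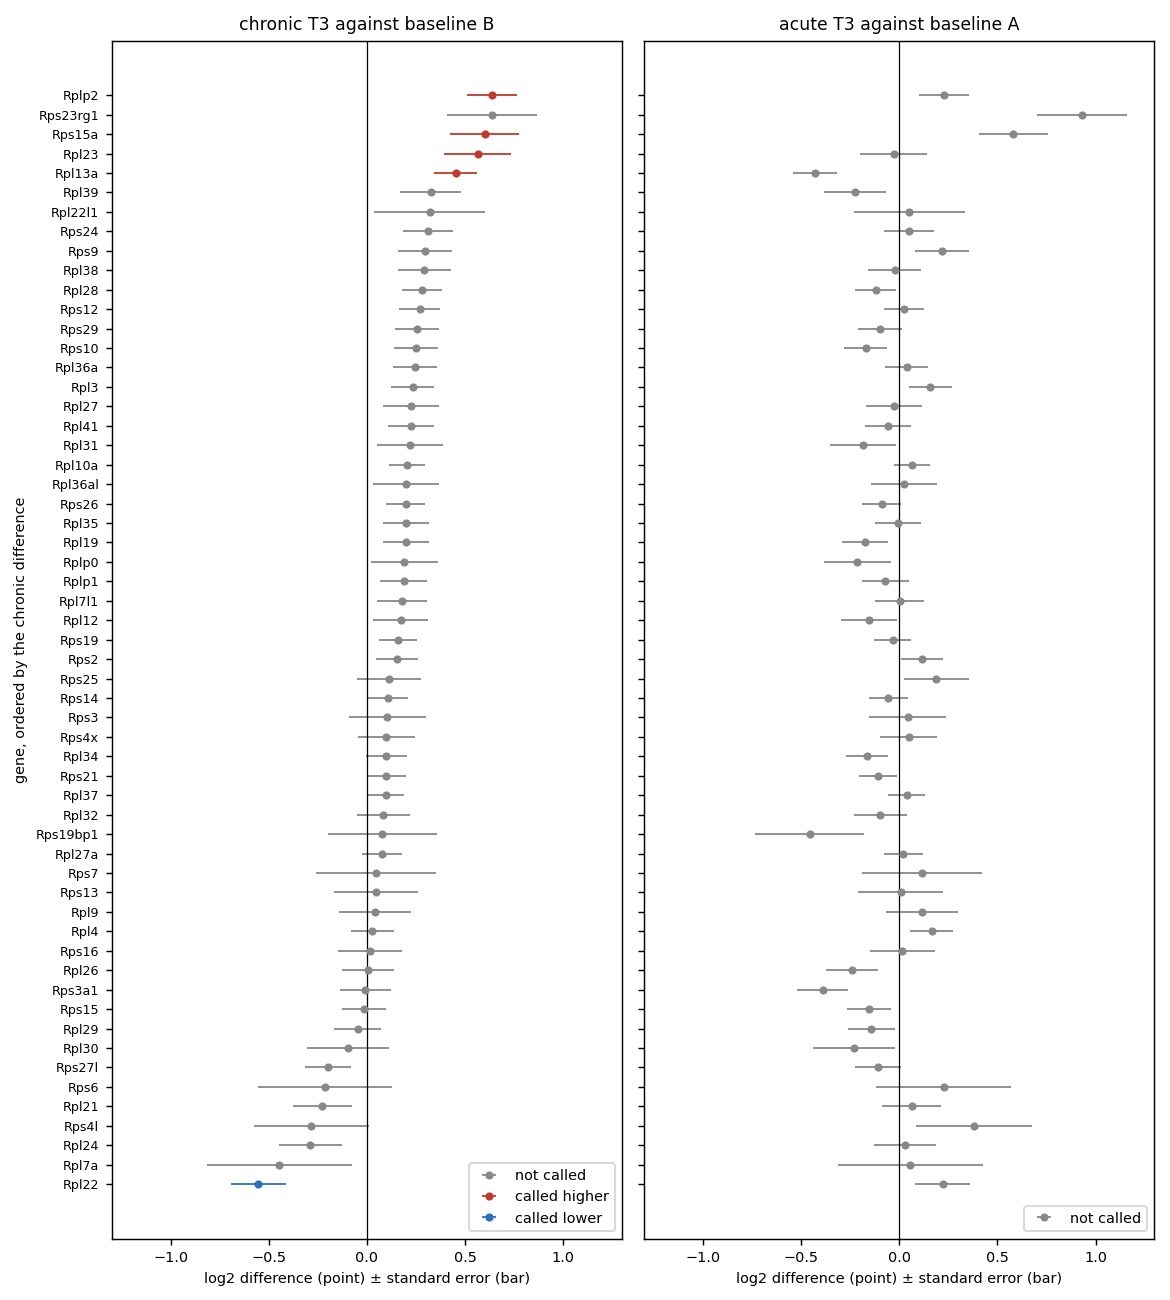
Log2 difference (point) with its standard error (bar) for each of the 57 members, ordered from top to bottom by the chronic difference, for chronic T3 against baseline B (left) and acute T3 against baseline A (right). In the left panel 4 members are called higher (red) and 1 lower (blue), and in the right panel none is called.

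The stalk of the large subunit is built from Rplp0 and the acidic proteins Rplp1 and Rplp2, and it brings elongation factors to the ribosome. Rplp2 had normalized log2 signals of 13.81, 14.16 and 13.94 on the chronic T3 arrays, against 13.23, 13.38 and 13.40 on the baseline B arrays. All chronic arrays lay above all baseline arrays, a difference of 0.64 ± 0.13 (log2, SE; 95% interval 0.36 to 0.91), or 1.56-fold, with an adjusted p of 0.00353 in limma's test. Its 2 stalk partners were not called. Rplp0 differed by 0.19 ± 0.17 and Rplp1 by 0.19 ± 0.12, with adjusted p of 0.464 and 0.287 (limma), and whether they differ from Rplp2 was not tested. The Rplp0 probe is dim, at raw signals of 217 to 320.

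Rpl13a is a large subunit protein that is also known, outside the ribosome, for holding back the translation of inflammatory messages in myeloid cells. It had log2 signals of 10.70, 10.55 and 10.81 under chronic T3, against 10.16, 10.37 and 10.18 in baseline B. The 2 groups did not overlap, and the difference of 0.45 ± 0.11 (1.37-fold) had an adjusted p of 0.0116 (limma). Rpl23, which binds Mdm2 as well as the ribosome, gave 15.09, 15.36 and 15.05 under chronic T3, against 14.75, 14.48 and 14.57 in baseline B. These arrays did not overlap either, and the difference was 0.56 ± 0.17 (1.48-fold, adjusted p = 0.0310 in limma's test). This value is that of the brightest probe alone: the other probes of Rpl23 gave 0.22 ± 0.12 and -0.04 ± 0.15, neither called. With the mean of the 3 probes the difference was 0.25 (adjusted p = 0.0918, limma).

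Rpl22 was the member that fell. It is a large subunit protein that general translation can do without and that T cell development in mouse needs. Its log2 signals were 10.03, 10.23 and 10.44 under chronic T3, against 10.82, 10.73 and 10.82 in baseline B. The difference of -0.55 ± 0.14 left the chronic level at 1.47-fold lower (adjusted p = 0.0137 in limma's test), with no overlap of arrays. The arrays of baseline A, at 10.43, 10.61 and 10.10, did overlap the chronic ones. Rpl22l1, the paralog that can take its place in the ribosome, gave 6.40, 6.72 and 6.75 under chronic T3, against 5.65, 6.39 and 6.88 in baseline B. These arrays overlapped, and the difference of 0.32 ± 0.28 did not pass the test (adjusted p = 0.453, limma).

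Rps15a, a small subunit protein, was the remaining member called. Its probe was dim, at raw signals of 134 to 215, and was detected on 2 of 3 chronic T3 arrays and on no baseline B array. The log2 signals were 5.89, 6.36 and 6.07 under chronic T3, against 5.62, 5.60 and 5.30 in baseline B. The difference was 0.60 ± 0.18 with an adjusted p of 0.0279 (limma). No fold is given, because the chronic mean of 6.11 lies under 6.45, the mean of the lowest signals that counted as detected on the baseline B arrays. The call was lost without background correction (0.23, adjusted p = 0.108) and in the authors' normalized values (0.25, adjusted p = 0.0942), both by limma.

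The other small subunit members moved less. Rps24 differed by 0.31 ± 0.13, Rps9 by 0.30 ± 0.14, Rps12 by 0.27 ± 0.10, Rps29 by 0.26 ± 0.11 and Rps10 by 0.25 ± 0.11, with adjusted p of 0.0953, 0.142, 0.0786, 0.120 and 0.127 in limma's test, none of them called. Of these genes Rps12 had the closest chronic arrays, with an SD of 0.01 under chronic T3 and 0.14 in baseline B. Its log2 signals were 14.60, 14.60 and 14.61 under chronic T3, against 14.33, 14.47 and 14.19 in baseline B. All its chronic arrays lay above all its baseline arrays. Rps6, the substrate of the S6 kinases, differed by -0.21 ± 0.34, Rps3, which also has a part in DNA repair, by 0.10 ± 0.20, and Rps14, whose loss of 1 copy causes anaemia in humans, by 0.11 ± 0.10. Rps19, the gene most often mutated in Diamond-Blackfan anaemia, differed by 0.16 ± 0.10. Its chronic arrays at 13.71, 13.74 and 13.75 lay above the baseline B arrays at 13.67, 13.64 and 13.42, without passing the test (adjusted p = 0.266, limma).

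In the large subunit, Rpl28 came nearest to the threshold among the members not called, at 0.28 ± 0.10 (adjusted p = 0.0656 in limma's test). Rpl39 differed by 0.32 ± 0.16, Rpl38, which selects Hox messages for translation in mouse embryos, by 0.29 ± 0.13, and Rpl26, which binds the p53 message, by 0.01 ± 0.13. Rpl24, a protein of the face between the subunits, differed by -0.29 ± 0.16, Rpl29 by -0.05 ± 0.12 and Rpl7a by -0.45 ± 0.37. Rpl7a had the widest error of all members. Over the 30 large subunit members 3 were called higher and 1 lower, with 24 positive and a median of 0.19, and over the 20 small subunit members 1 was called higher, with 17 positive and a median of 0.11. Groups that did not overlap were found for 19 members with chronic T3 higher and for 2 with it lower, where 18.9% and 16.4% of all genes were so separated.

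Genes often used as references can be read from the same values. Rpl13a was called, Rpl19 differed by 0.20 ± 0.12, Rpl27 by 0.23 ± 0.14, Rpl32 by 0.08 ± 0.13, Rpl4 by 0.03 ± 0.11, Rplp0 by 0.19 ± 0.17, Rps16 by 0.01 ± 0.16 and Rps29 by 0.26 ± 0.11 on the log2 scale. Of these 8, 7 did not pass the test. Among the paralogs, Rpl36al differed by 0.20 ± 0.17 beside 0.24 ± 0.11 for its partner Rpl36a, and Rps4l by -0.28 ± 0.29 beside 0.10 ± 0.14 for the X-linked Rps4x. Rpl7l1 differed by 0.18 ± 0.13, and Rps27l, a p53 target, by -0.20 ± 0.12. None of the 5 paralogs was called. Rps19bp1, a protein that binds Rps19, differed by 0.08 ± 0.28, and Rps23rg1, a retroposed copy of Rps23 in mouse, by 0.64 ± 0.23 (adjusted p = 0.0625 in limma's test), detected on 1 chronic and no baseline B array.

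**Figure D2:**
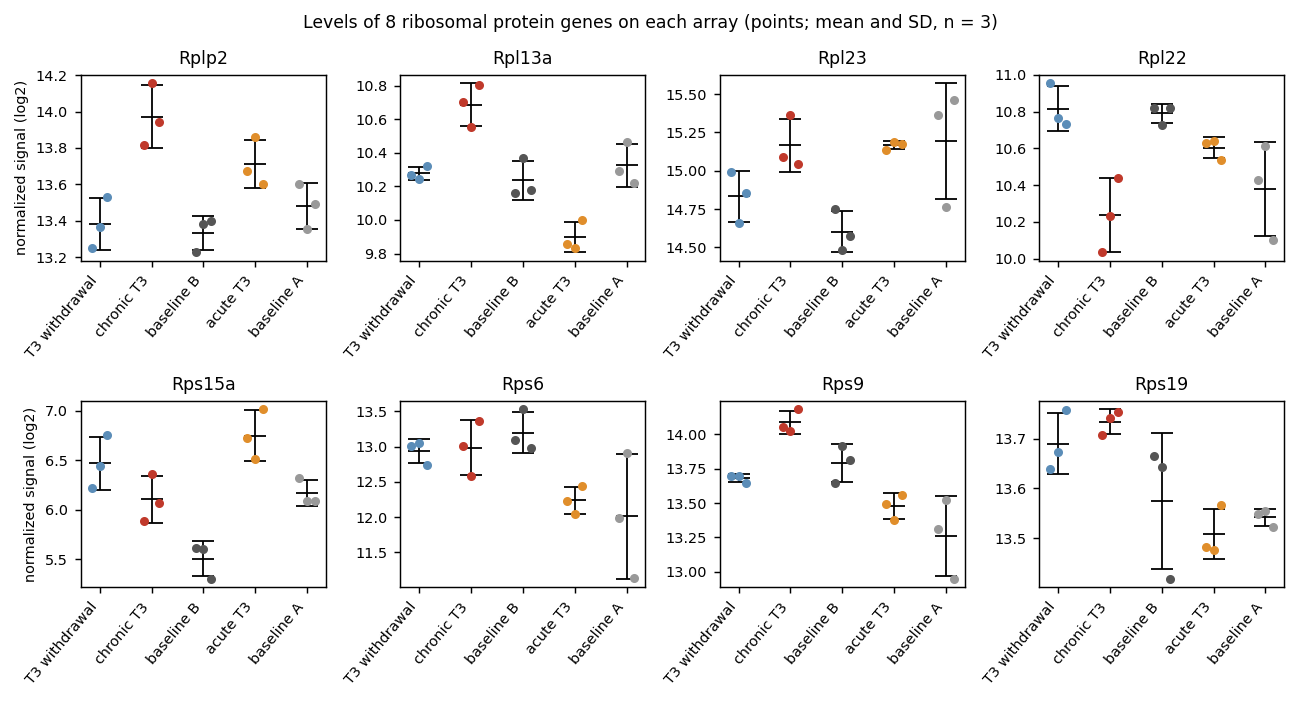
Normalized log2 signal on each array (points) with the group mean and SD (bars, n = 3) for 8 members, with T3 withdrawal, chronic T3 and baseline B at left and acute T3 and baseline A at right in each panel. The chronic T3 arrays of Rplp2, Rpl13a and Rpl23 lie above, and those of Rpl22 below, all baseline B arrays, and the scale of the axis differs between panels.

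The count of 5 changed with the arrays in the fit. Without both dim chronic arrays, replicates 2 and 3, 1 member was called, lower (Rpl22), the lone chronic array being assumed to vary like the other groups. The differences were then 0.47 for Rpl13a, 0.49 for Rpl23 and 0.48 for Rplp2, with adjusted p of 0.0642, 0.212 and 0.0853 (limma). The count was 3 without chronic T3 replicate 2 and 3 without baseline B replicate 3. Rpl22 was not called in limma's test without chronic T3 replicate 1 (-0.45, adjusted p = 0.0526). Rpl23 was not called without chronic T3 replicate 1 or 2 or without baseline B replicate 2 or 3 (adjusted p from 0.0510 to 0.113), and Rps15a not without replicate 2 of chronic T3 (0.109) or replicate 3 of baseline B (0.105), all by limma. Rplp2 and Rpl13a remained called when any 1 array was left out.

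Other cell types moved in the same comparison. Of 15 measured markers of macrophages and Kupffer cells, 14 were called higher, and their summed normalized signal was 19913 to 35397 on the chronic T3 arrays, against 7527 to 10793 on the baseline B arrays. Of 11 markers of proliferating cells 8 were called higher, with sums of 7177 to 16791 under chronic T3, against 2737 to 2989 in baseline B. No macrophage marker was undetected throughout either group, and 2 of the 11 proliferation markers were undetected on all baseline B arrays. Endothelial markers were called higher for 4 of 13, and hepatocyte markers lower for 2 of 12 (Alb and Fgb), with hepatocyte sums of 305301 to 314113 under chronic T3, against 313944 to 323596 in baseline B. Erythroid markers were called lower for 1 of 3, and no marker was called among 11 of stellate cells and fibroblasts and 2 each of cholangiocytes, lymphocytes and neutrophils, with 3 of the 11 and none of the others at an unadjusted p under 0.05 (limma). The part of these cell types in the ribosomal protein values was not tested.

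The genes around the ribosome were read from lists chosen with earlier results of these data known. Ribosome biogenesis factors were called higher for 12 and lower for 3 of 55, with a median of 0.13. Among them Bud23, a methyltransferase of small subunit RNA, rose by 0.89 ± 0.13, the nucleolar protein Nolc1 by 1.28 ± 0.23 and the endonuclease Nob1 by 0.69 ± 0.13, while Sbds, which matures the large subunit, fell (log2 difference -0.50 ± 0.10). Their adjusted p were 6.16e-04, 0.00210, 0.00244 and 0.00337 in limma's test. RNA polymerase I, which transcribes ribosomal RNA, had 2 of 13 genes called, both higher (Polr1e by 0.71 ± 0.14 and Polr1a by 0.58 ± 0.17). Initiation factors had 4 of 24 called, all higher: Eif1a by 0.75 ± 0.14, Eif2b3 by 0.53 ± 0.15, Eif2b5 by 0.36 ± 0.11 and Eif4a1 by 0.36 ± 0.11. Each of these 3 shares called higher lies above the 12.4% of all genes, and whether they differ from it was not tested. Nolc1 was lower in baseline B than in baseline A by a log2 difference of -1.22 ± 0.23 (adjusted p = 0.0115, limma), about the size of its chronic rise, and between the baselines 1 biogenesis gene was called higher and 5 lower, with a median of -0.15.

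Messages known to carry the same tract as those of ribosomal proteins were called in both directions. Of 17 elongation factors and other such genes, Eef1g rose by 0.48 ± 0.14, and Eif4b (-0.41 ± 0.12) and Eif3h (-0.76 ± 0.24) fell, with 14 not called and a median of -0.03. Among 19 regulators, Ddit4, an inhibitor of mTOR, rose by 2.31 ± 0.62 and Mxi1, an antagonist of Myc, fell (-0.94 ± 0.21). The other 17 were not called, and the median was 0.02. Among 10 p53 targets Cdkn1a rose by 3.38 ± 0.22 and Mdm2 by 0.47 ± 0.14, with 8 not called, beside the -0.20 ± 0.12 of Rps27l. Cdkn1a was itself lower in baseline B than in baseline A, at -2.65 ± 0.22 (adjusted p = 1.62e-04, limma). Mitochondrial ribosomal proteins were called higher for 5 and lower for 3 of 72, with a median of -0.03. Over all genes 12.4% were called higher and 10.5% lower, and whether any of these lists differs from that was not tested. The 12 members whose window holds CTTTC, Rps23rg1 among them, had a median difference of 0.27 with 11 positive and 3 called higher. Those 3 were Rplp2, Rpl13a and Rps15a, the last detected on no baseline B array. The 36 others with a window had a median of 0.11 with 30 positive, 1 called higher and 1 lower. Between baseline B and baseline A the same 12 had a median of -0.15, with 3 positive and 2 called lower. The 36 others had a median of 0.08 there, with 24 positive, 3 called higher and 1 lower. Over all genes 2.73% were called higher and 5.98% lower between the baselines. These are descriptions with quantile normalization, as whether the sets differ was not tested. With median scaling the chronic median over all members was -0.01 and no member was called under chronic T3.

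Acute T3 was compared with baseline A to read the first hours after hormone. No member was called in limma's test, where 2.12% of all genes were called, 1.47% higher and 0.646% lower. At an unadjusted p under 0.05 there were 4 of 57 members (7.02%), against 14.7% of all genes. The median of the members was 0.00, as was that of all genes, and 51 of 57 lay within 0.3 of zero. Rpl13a had log2 signals of 9.86, 9.83 and 10.00 after acute T3, against 10.29, 10.46 and 10.22 in baseline A. The groups did not overlap, and the difference of -0.43 ± 0.11 (1.35-fold lower) had an adjusted p of 0.0636 (limma). Rpl13a was past the threshold in the authors' normalized values (-0.40, adjusted p = 0.0437), without background correction (-0.39, adjusted p = 0.0401) and over genes detected on all arrays (adjusted p = 0.0397), all by limma. These settings keep quantile normalization. With median scaling or without normalization between arrays Rpl13a was not called after acute T3.

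Rps3a1 and Rps15a were the other subunit members with a small unadjusted p. Rps3a1, a small subunit protein, gave 10.91, 10.89 and 10.82 after acute T3, against 11.30, 11.27 and 11.23 in baseline A, a difference of -0.39 ± 0.13 (adjusted p = 0.160, limma). Rps15a gave 6.73, 6.51 and 7.02 after acute T3, against 6.32, 6.09 and 6.09 in baseline A, a difference of 0.58 ± 0.18 (adjusted p = 0.120, limma). Both were separated without passing the test. Rps23rg1, which is no ribosomal protein, gave 6.62, 6.77 and 5.89 after acute T3, against 5.70, 5.37 and 5.42 in baseline A. It was detected on all 3 acute T3 arrays, on no baseline A array and on 1 other array of the 15. It therefore passed the detection filter only through the group where it is high, and its level of at least 1.34-fold higher (adjusted p = 0.0542, limma) is a description. Members without overlap numbered 3 higher and 7 lower, where 11.7% and 10.2% of all genes were so separated.

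Around the ribosome, few genes were called after acute T3, where 1.47% of all genes were called higher and 0.646% lower. Whether any list differs from these shares was not tested. Of 24 initiation factors Eif2b3 rose by 0.83 ± 0.15 and Eif5b by 0.71 ± 0.16 (adjusted p = 0.0134 and 0.0352 in limma's test). No gene of ribosome biogenesis, RNA polymerase I, elongation or the mitochondrial ribosome was called. In the same test 3 of 55, 2 of 13, 1 of 17 and 11 of 72 had an unadjusted p under 0.05, against 14.7% of all genes. Sesn1, a p53 target that restrains mTOR and stands in both of those lists, rose by 0.66 ± 0.14 as the only 1 of 19 regulators called, and Cdkn1a fell (-2.07 ± 0.22) relative to the higher of the 2 baselines, the other of 2 p53 targets called.

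The chronic effect minus the acute effect was tested as a contrast of all 4 groups. It asks whether the 2 schedules differed in what they did. Of the 57 members Rpl13a was called higher and Rpl22 lower, where 7.14% of all genes were called, 3.82% higher and 3.32% lower. The contrast for Rpl13a was 0.88 ± 0.16 (adjusted p = 0.00644, limma), from 0.45 under chronic and -0.43 under acute T3. For Rpl22 it was -0.78 ± 0.20 (adjusted p = 0.0335, limma), from -0.55 under chronic T3 and 0.22 ± 0.14 after acute T3, where its log2 signals were 10.63, 10.64 and 10.54, against 10.43, 10.61 and 10.10 in baseline A. Rpl13a remained called without any 1 array and lost its call with median scaling (0.66, adjusted p = 0.335) and without normalization between arrays (0.60, adjusted p = 0.524, limma). Rpl22 lost its call under both as well (-1.04 and -1.10, adjusted p = 0.0915 and 0.136, limma). It was also lost without the detection filter and with the replicate block (adjusted p = 0.0583 and 0.0544, limma). In addition, the call of Rpl22 ended when chronic T3 replicate 1 or 2, any acute T3 array, or replicate 1 or 3 of either baseline was left out, with adjusted p from 0.0604 to 0.0792 (limma). For Rps15a the contrast was 0.02 ± 0.25. The median contrast over the members was 0.18 against 0.01 over all genes, and -0.13 against -0.11 with median scaling.

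**Figure D3:**
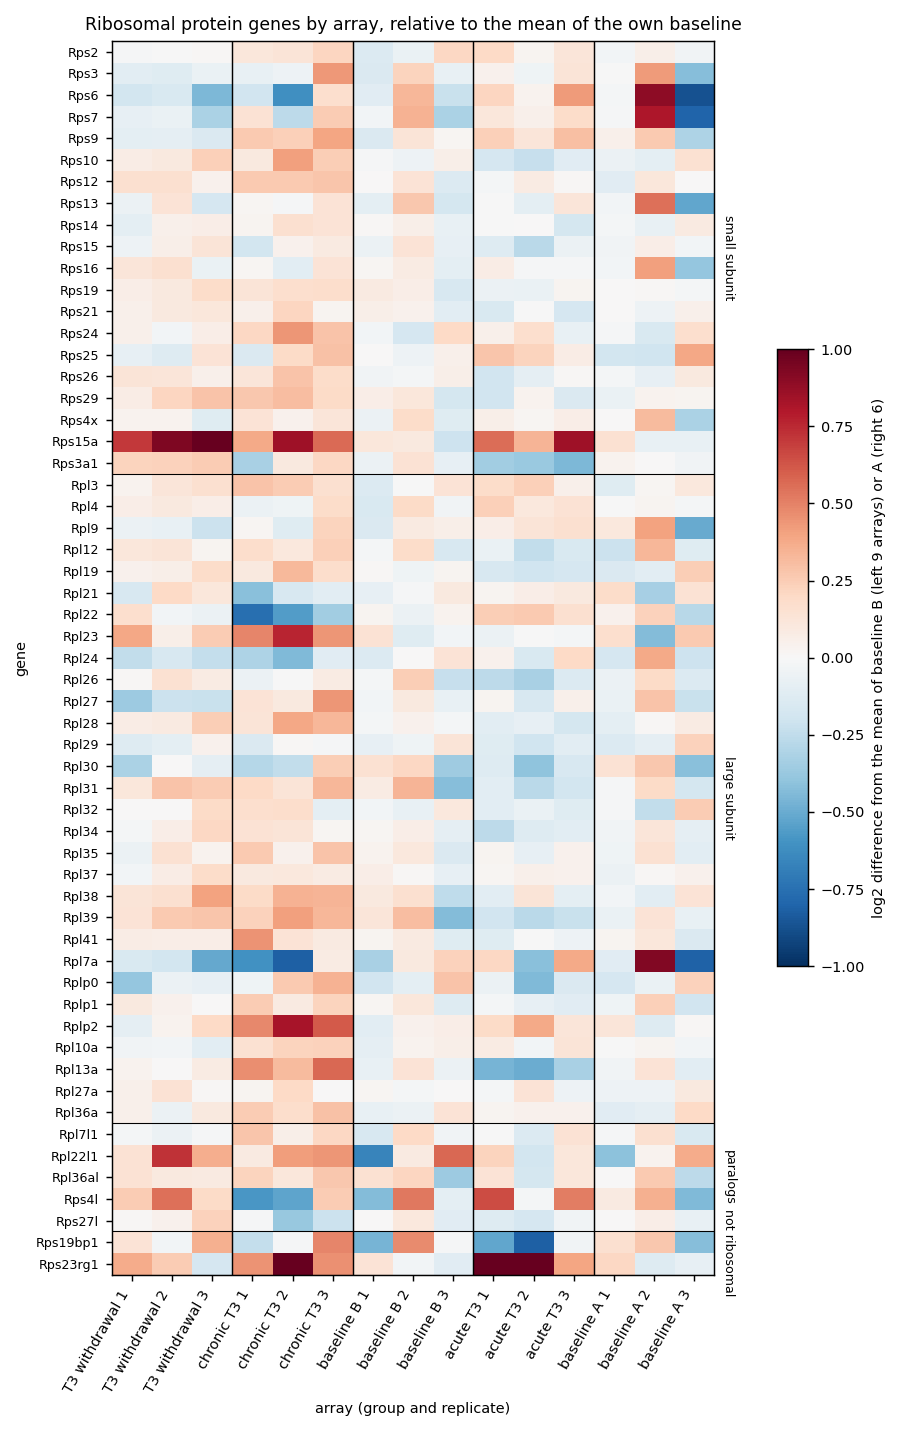
Log2 difference of each member on each array from the mean of its own baseline, B for the 9 arrays at left and A for the 6 at right, with members in rows by subunit and arrays in columns by group. Most cells are pale, Rps15a is dark red under T3 withdrawal, Rpl22 is blue under chronic T3, and Rps6, Rps7 and Rpl7a are dark red on baseline A replicate 2 and dark blue on baseline A replicate 3. Differences beyond 1 share the end colour of the scale.

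T3 withdrawal was set against baseline B for what remained, and against chronic T3 for what reversed. These comparisons share arrays with the chronic one and with each other. Against baseline B no member was called in limma's test, and 0.0111% of all genes were called. At an unadjusted p under 0.05 there was 1 of 57 members (Rps15a, 1.75%), against 7.38% of all genes. Rps15a gave 6.22, 6.44 and 6.75 after withdrawal, against 5.62, 5.60 and 5.30 in baseline B, every withdrawal array above every baseline array. Since no baseline B array detected it, it was at least 1.01-fold higher, with measured means of 6.47 after withdrawal and 5.51 in baseline B, and it did not pass the adjustment (adjusted p = 0.196, limma). The other members of this comparison lay between -0.28 and 0.41, with a median of 0.07 over all 57 against 0.03 over all genes. Members without overlap numbered 5 higher and 2 lower, where 9.17% and 5.37% of all genes were so separated.

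Against chronic T3, 3 members fell after withdrawal and 1 rose, and 17.1% of all genes were called, 8.82% higher and 8.31% lower. Rplp2 gave 13.25, 13.37 and 13.53 after withdrawal, against 13.81, 14.16 and 13.94 under chronic T3, a difference of -0.59 ± 0.13 (adjusted p = 0.00701, limma). Rpl13a gave 10.27, 10.24 and 10.32 after withdrawal, against 10.70, 10.55 and 10.81 under chronic T3, a difference of -0.41 ± 0.11 (adjusted p = 0.0229, limma). Rpl22 rose, with 10.95, 10.76 and 10.73 after withdrawal, against 10.03, 10.23 and 10.44 under chronic T3 (0.58 ± 0.14, adjusted p = 0.0130, limma). None of these 3 genes had overlapping arrays, and after withdrawal they differed from baseline B by 0.05 ± 0.13, 0.04 ± 0.11 and 0.03 ± 0.14.

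Rpl27, a large subunit protein, was the remaining member called. It gave 12.9985, 13.15 and 13.14 after withdrawal, against 13.50, 13.46 and 13.80 under chronic T3 (-0.49 ± 0.14, adjusted p = 0.0311, limma), while against baseline B at 13.34, 13.46 and 13.29 it differed by -0.27 ± 0.14. Rps9, of the small subunit, differed by -0.41 ± 0.14 without being called (adjusted p = 0.0590, limma), and was called in the authors' normalized values, without background correction and with trend and robust moderation (adjusted p = 0.0399, 0.0375 and 0.0304, limma). Rps15a differed by 0.36 ± 0.18. Members without overlap numbered 3 higher and 16 lower, where 17.6% and 15.3% of all genes were so separated. With median scaling Rplp2 was at -0.09 (adjusted p = 0.749, limma), and Rpl13a and Rpl27 turned to 0.06 and 0.03. Without both dim chronic arrays 2 members were called, both higher, and Rplp2 at -0.43 was not (adjusted p = 0.136, limma). The count was 2 without chronic T3 replicate 3, 1 without T3 withdrawal replicate 1 and 2 without T3 withdrawal replicate 2. Rpl13a was also lost without chronic T3 replicate 1 (adjusted p = 0.0529), Rpl22 without T3 withdrawal replicate 1 (0.0561) and Rpl27 without any 1 withdrawal array or chronic T3 replicate 3 (0.0635 to 0.107), all by limma. Macrophage marker sums were 8048 to 8555 after withdrawal, against 19913 to 35397 under chronic T3, and their part in these values was not tested.

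The 2 untreated groups were compared to see how far the subsets differed without hormone. Between baseline B and baseline A, 3 members were called higher (Rps6, Rpl24 and Rps9) and 3 lower (Rps15a, Rpl23 and Rpl28), where 8.71% of all genes were called, 2.73% higher and 5.98% lower. Rps6 had log2 signals of 13.09, 13.53 and 12.97 in baseline B, against 11.99, 12.90 and 11.14 in baseline A. The difference of 1.19 ± 0.34 was the largest between these groups, with means of 13.20 ± 0.29 in baseline B and 12.01 ± 0.88 in baseline A (SD, n = 3 each) and no overlap. Rpl24 differed by 0.61 ± 0.16, Rps9 by 0.53 ± 0.14, Rpl23 by -0.59 ± 0.17 and Rpl28 by -0.37 ± 0.10. The adjusted p of Rps6, Rpl24, Rps9, Rpl23 and Rpl28 were 0.0493, 0.0354, 0.0329, 0.0489 and 0.0452 in limma's test. Rps15a was detected on no array of baseline B and on all 3 of baseline A, with a difference of -0.66 ± 0.18 (adjusted p = 0.0373, limma) and no fold. Members without overlap numbered 5 higher and 8 lower, where 10.9% and 19% of all genes were so separated.

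These calls lie near the threshold. With the replicate number as a block, 0 of the 57 were called between the baselines. The count was also 0 without baseline A replicate 1, baseline A replicate 3, baseline B replicate 2 or baseline B replicate 3. It was 2 without baseline B replicate 1 and 15 without baseline A replicate 2, where Rps3, Rps4x, Rps16, Rpl22 and Rpl27 were among those added. For Rps15a, Rpl23 and Rpl28, the members lower in baseline B, the chronic T3 means of 6.11, 15.17 and 13.48 lay farther from the 5.51, 14.60 and 13.20 of baseline B than from the 6.17, 15.19 and 13.57 of baseline A. The chronic rise of Rps15a and Rpl23 was read against the lower of the 2 baselines. The chronic fall of Rpl22 was read against the higher one, though Rpl22 was not called between the baselines over all arrays. Its means were 10.24 under chronic T3, 10.79 in baseline B and 10.38 in baseline A. Rplp2 and Rpl13a, not called between the baselines, also had lower means in baseline B (13.33 and 10.24) than in baseline A (13.48 and 10.32). Their chronic T3 means of 13.97 and 10.69 lay above both.

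Within groups the members were steadier than most genes, and they were also brighter. Their median log2 signal on an array was 13.05 to 13.48, against 8.59 to 8.67 over all genes. Whether their steadiness goes with their brightness was not tested. The pooled within-group SD had a median of 0.15 over the 57 members, against 0.23 over all genes, and ran from 0.06 in Rpl10a to 0.50 in Rpl7a. Rps6 and Rps7 followed Rpl7a. These 3 genes spread mostly in baseline A, where Rpl7a gave 10.73, 11.76 and 10.04 and Rps7 gave 12.65, 13.47 and 11.86. Of the members' within-group variance 58.3% lay in 1 component, to which Rpl7a, Rps6, Rps7, Rps4l, Rps19bp1, Rps13, Rps3 and Rpl30 contributed most. These 8 were picked after their values were seen and get no test. Their median deviation from the group mean was 0.49 on baseline A replicate 2, -0.48 on baseline A replicate 3, 0.36 on chronic T3 replicate 3 and 0.30 on baseline B replicate 2, while the other 49 members had median deviations of -0.06 to 0.07 on every array. The cut at 8 was a choice, and single members among the 49 moved as far. On baseline A replicates 2 and 3 Rpl9 deviated by 0.40 and -0.50 and Rps16 by 0.41 and -0.39. Rpl23 went the other way, by -0.43 and 0.26. The mean signals of baseline A replicates 2 and 3 were 630.0 and 567, within the range of the other arrays.

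**Figure D4:**
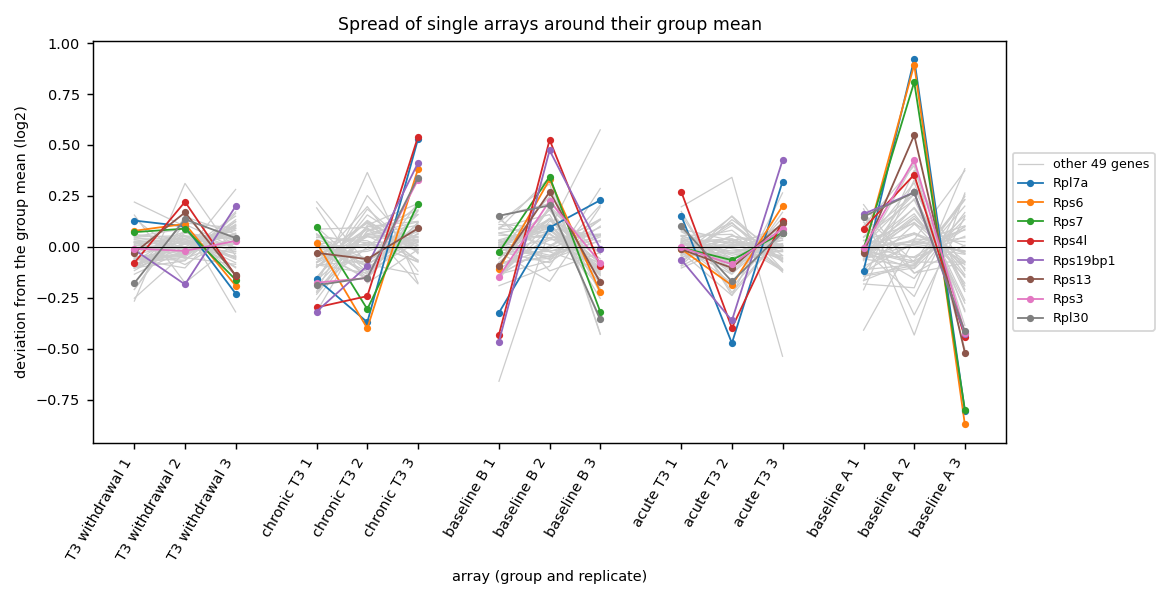
Deviation of each member from its group mean (log2) on each of the 15 arrays, with 8 members in colour and the other 49 in grey, and lines joining the values of 1 gene within a group. The coloured genes are high together on baseline A replicate 2 and low together on baseline A replicate 3, while most grey lines stay near zero.

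A gene's value also depended on the probe. Of the 57 members 15 had at least 2 detected probes, which gave 76 probes in all, and each of the 76 was tested on its own among 15361 probes. Under chronic T3 against baseline B 5 probes were called higher and 1 lower, where 18.8% of all probes were called. The call added was a dim probe of Rps13, a small subunit protein, at 0.58 ± 0.16 (adjusted p = 0.0213, limma), while its brightest probe gave 0.05 ± 0.22. Probes of 1 gene had opposite signs in 7 of the 15 genes, and the gap between them had a median of 0.21.

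Between the baselines the probes of 8 of the 15 genes had opposite signs, with a median gap of 0.29. The largest gap was that of Rps13, at 0.47 ± 0.22 for the brightest probe and -0.61 ± 0.16 for the dim one. Rpl29, a large subunit protein, gave 0.04 ± 0.12 and 1.02 ± 0.34, and Rps2, of the small subunit, 0.09 ± 0.11 and 0.80 ± 0.29. Rpl23 gave -0.59 ± 0.17, -0.24 ± 0.12 and 0.41 ± 0.15. No gene had probes called in both directions. Ribosomal protein genes have many processed pseudogene copies, and whether a probe reads a copy was not tested.

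**Figure D5:**
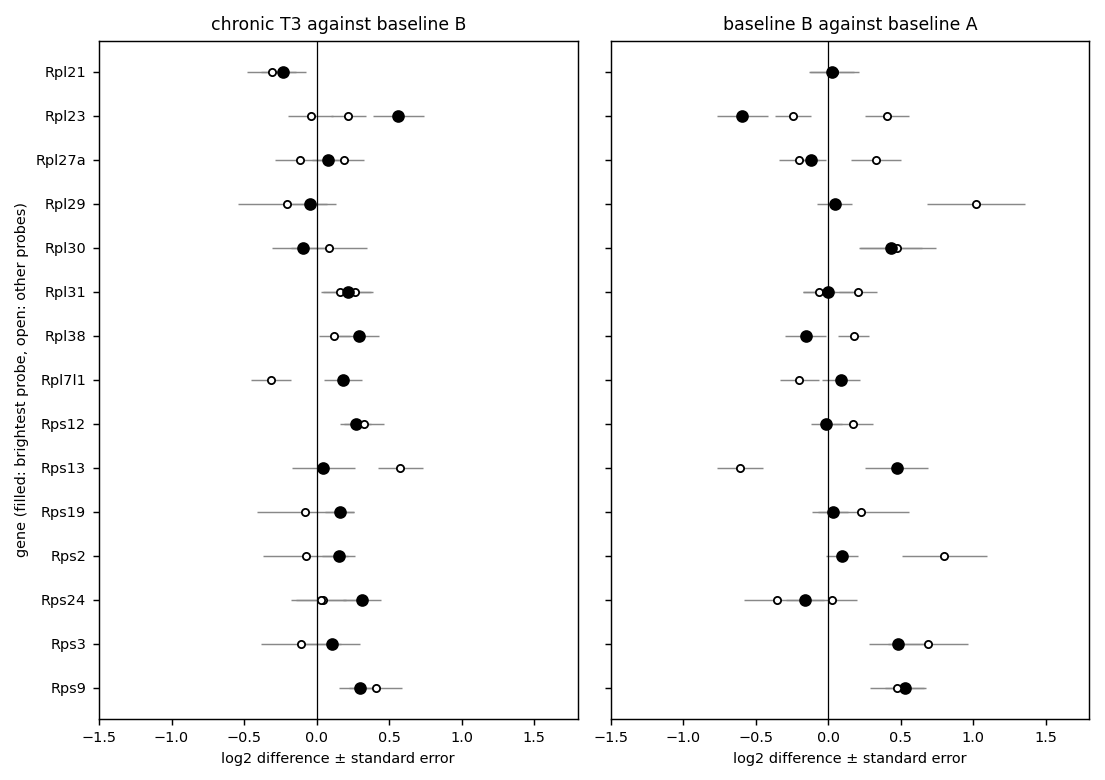
Log2 difference with its standard error for every detected probe of the 15 members with at least 2 such probes, for chronic T3 against baseline B (left) and baseline B against baseline A (right). Filled points are the brightest probe, which stands for the gene elsewhere, and open points are the other probes. Rpl23, Rps13, Rpl29 and Rps2 have probes that lie far apart.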

How the data were processed

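Liver RNA from 15 arrays in 5 groups of 3 was read on Illumina bead arrays. The authors deposited a table of probe signals, intensity values on a linear scale that are not normalized per the file headers, with a detection p-value beside each signal. A second deposited table holds the authors' normalized intensities on a linear scale. Each of its columns has a median of 114, keeps the rank order of that array's signals (rank correlation of 1 on all 15 arrays) and shares its sorted values with the others, so it is uncentred and quantile-normalized, and it was used on the log2 scale as an alternative. Per the submitters' processing notes Partek 6.6 was used, with settings not given in the sources used here. No column of other samples was left over (0). The arrays' number limits the precision.

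The intensities were corrected for background from the detection p-values, given 1 common distribution by quantile normalization and put on the log2 scale, all by neqc with an offset of 16 in limma 3.58.1 under R 4.3.3. Probes with a detection p under 0.01 on at least 3 arrays were kept, with genes from GEO's platform annotation (34885 of 45281 probes have 1 gene, 18 several and 10378 none). Group means over all 15 arrays were fitted with lmFit and eBayes (10 residual and 13.07 moderated degrees of freedom), and p-values were adjusted by Benjamini-Hochberg over 8976 genes and called under 0.05. The fit covers 6 comparisons, and an exact permutation of 3 against 3 arrays could not go below 0.1. A fold against a group in which no array detected the probe is a bound against the lowest detected signals of its arrays.

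Members and lists were chosen with earlier results of these data known. Pseudogenes were read as symbols that end in ps, and none was found. Named members are Rps15a, called members (up to 6 a direction), paralogs with their partners, stalk proteins, common reference genes, members with well known roles and symbols that are no ribosomal protein, and up to 4 genes of each other list by adjusted p. Rps12, Rps24, Rps10, Rpl39, Rpl7a, Rps3a1, Rps7, Rps13, Rps2, Rpl10a and Rpl30 were named after their values were seen.

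Replicate numbers were checked for pairing by the correlation of residuals of same-numbered arrays. It was above 0.1 in every pair for the baselines alone (0.126 to 0.250), and otherwise ran from -0.281 to 0.238. Data were simulated for 8976 genes with each gene's spread pooled over the 5 groups, and changes were put into the chronic T3 arrays. In the chronic comparison 15 of 67 changes of 0.5 (log2), 47 of 67 of 1 and 66 of 66 of 2 were recovered, with 8 wrong among 136 calls. The simulated noise was independent between genes, unlike the members' shared component, and the changes were added after normalization. They were put into genes of any kind, so these are not rates for the members. Alternatives changed the background correction, scaling, detection filter, probe summary, moderation, array weights, replicate block and the arrays in the fit. Those that change background or scaling kept the same filter and probes, and those that leave out arrays kept the normalization.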

Additional observations from a re-analysis of the deposited data

Results flagged for a closer look

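The effect of chronic T3 minus the effect of acute T3 passed the test of that difference itself (limma, Benjamini-Hochberg) for 2 members. For Rpl13a the difference of effects was 0.88 ± 0.16 (log2, SE, adjusted p = 0.00644), with the chronic T3 arrays at 10.69 ± 0.13 and baseline B at 10.24 ± 0.12, and the acute T3 arrays at 9.90 ± 0.09 and baseline A at 10.32 ± 0.13 (SD, n = 3 each). Its call was lost with median scaling (0.66, adjusted p = 0.335) and without normalization between arrays (0.60, adjusted p = 0.524, limma). For Rpl22 it was -0.78 ± 0.20 (adjusted p = 0.0335), with 10.24 ± 0.20 under chronic T3 and 10.79 ± 0.05 in baseline B. Median scaling and no normalization between arrays ended this call too (-1.04 and -1.10, adjusted p = 0.0915 and 0.136, limma). Rpl22 differed by 0.41 ± 0.14 between baseline B and baseline A without being called (adjusted p = 0.0812, limma).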

How the results depend on the processing

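With median scaling 0 members were called in the chronic comparison, 0 in the difference of effects and 2 between the baselines, and the members' medians were 0.15 (acute), -0.012 (chronic), 0.38 (withdrawal against baseline B), 0.38 (withdrawal against chronic), -0.13 (difference) and -0.13 (baselines), where the medians of all genes shifted to 0.14, 0.04, 0.40, 0.36, -0.11 and -0.35. Without normalization between arrays the counts were 0 (chronic), 7 (withdrawal against chronic), 0 (difference) and 0 (baselines), with medians of -0.15, 0.37, 0.51 and -0.19 for the chronic, both withdrawal and difference comparisons. In withdrawal against chronic, Rpl13a and Rpl27 turned to 0.057 and 0.031 with median scaling and to 0.19 and 0.16 without normalization, where Rplp2 turned to 0.035. In the acute comparison 1 member was called without background correction, in the authors' values, over genes detected on all arrays and with trend and robust moderation. Without a detection filter 1 was called in the difference and 0 between the baselines. At an adjusted p under 0.01 the counts were 1, 1, 1 and 0, and with the arrays of the compared groups alone 1, 0, 1 and 0, for chronic, withdrawal against chronic, difference and baselines. Array weights by the default method did not converge, gave baseline A replicate 1 a weight of 0.000489 and called 0 members between the baselines. The gene-by-gene method, chosen after seeing the data, gave it 5.04 and called 6 (acute), 4 (difference) and 15 (baselines). Over all genes these weights moved the calls between the baselines to 79 and 2506, against 782, and median scaling moved the chronic calls to 888, against 2052. Without both dim chronic arrays, also chosen after seeing the data, 1 (chronic) and 2 (withdrawal against chronic) were called, with a median of -0.024 in withdrawal against chronic. With the replicate block 1 member was called in the acute comparison, 6 in the chronic and 0 and 4 in both withdrawal ones. The acute call and the added chronic call were those of Rps23rg1, which is no ribosomal protein (adjusted p = 0.0347 and 0.0344, limma). In the difference 1 was called, and between the baselines 0. No label says that replicate numbers pair. Residual correlations of same-numbered arrays were above 0.1 in every pair for the baselines alone, which with 3 arrays a group cannot show pairing. Leaving out 1 array gave counts of 0 to 1 (acute), 3 to 5 (chronic), 0 (withdrawal against baseline B), 1 to 4 (withdrawal against chronic), 1 to 3 (difference) and 0 to 15 (baselines), with medians of -0.08 to 0.01, 0.09 to 0.19, 0.04 to 0.10, -0.10 to -0.05, 0.13 to 0.23 and -0.01 to 0.08. Of 4302 values of 32 named members under alternatives, 4111 kept the call, 147 lost it, 39 gained one and 5 turned direction. Signal over background limits Rps15a, Rpl22l1 and Rps23rg1, which were detected on 11, 13 and 4 of 15 arrays.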
